A study of Mus musculus with 686 samples.

Results

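The lymphoid-enriched lncRNA fragments are 100 rows of the deposited lncRNA table, out of 9139, whose small RNA reads were most concentrated in thymus and spleen. Each row is 1 annotated lncRNA transcript, and its value is the number of short reads assigned to it. Counts were scaled to the lncRNA total of the library as CPM, the unit of every level given here unless said otherwise. The members were selected on measured levels. Tissue medians were taken over the 234 libraries of ground control mice of the live animal return, and rows were ranked by the lower of the thymus and spleen medians plus 1, divided by the highest median of the other 11 tissues plus 1. The 100 rows belong to 75 genes by symbol, out of 5873 in the table. Because thymus, spleen and the other tissues of these controls chose the rows, their levels there are a description and carry no test.

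Thymus is where T cells mature and are selected, and spleen holds mature B and T cells, macrophages and, in mice, red cell precursors. Long non-coding RNAs are transcripts without a long reading frame, and many are made near genes that control cell identity. Some of them are the primary transcripts from which miRNAs or small nucleolar RNAs (snoRNAs) are cut. A small RNA library holds fragments of a length near that of a miRNA, so a row can gather reads of a processed small RNA as well as breakdown products of the transcript itself.

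The study flew female BALB/cAnNTac mice of 3 or 8 months on the International Space Station and sequenced small RNA of 13 tissues in 686 libraries. Spaceflight mice (FL) were set against a habitat ground control (HGC) kept in flight-like housing and a vivarium ground control (VGC) in standard cages. Mice of the live animal return (LAR, 348 libraries) were euthanized on Earth after landing, or at the matching time on the ground, and their tissues were snap frozen. Mice of the terminated group (TERM, 338 libraries) were euthanized on the station or at its matching time on the ground. In TERM the spleen was dissected fresh into RNAlater, whereas the other tissues came from carcasses that were frozen whole and thawed for dissection. No engineered allele is given for any group. The anaesthetic was ketamine and xylazine in LAR, with acepromazine added in TERM. LAR and TERM thus differ in duration, return, anaesthesia and preservation at once, which cannot be told apart. Thymus has 10 FL, 10 HGC and 10 VGC libraries in LAR and 10, 9 and 9 in TERM. Spleen has 6, 6 and 9 in LAR and 9, 9 and 8 in TERM.

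Several rows belong to host genes of miRNAs. The miRNAs of Mir155hg and Mir17hg are shown because these rows hold most of the member counts, with about as many reads as miR-155 for Mir155hg and somewhat more than the miRNAs for Mir17hg, and those of Mir142hg and 2900076A07Rik because their rows differ widely from the miRNAs. They are the mature forms from RefSeq on GRCm38.p6, 5′ to 3′, with the seed (bases 2 to 8) in capitals. miR-155-5p is cut from Mir155hg (chr16:84714143-84714165), 6 arms from Mir17hg on chromosome 14, 2 from Mir142hg on chromosome 11 and miR-1839-5p from 2900076A07Rik on chromosome 7. miR-17-5p and miR-20a-5p share 1 seed, and miR-19a-3p and miR-19b-3p share another.
miR-155-5p: uUAAUGCUaauugugauaggggu
miR-17-5p: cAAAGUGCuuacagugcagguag
miR-20a-5p: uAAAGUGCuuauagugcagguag
miR-18a-5p: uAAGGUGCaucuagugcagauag
miR-19a-3p: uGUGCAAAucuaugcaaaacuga
miR-19b-3p: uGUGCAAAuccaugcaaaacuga
miR-92a-3p: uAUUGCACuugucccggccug
miR-142a-3p: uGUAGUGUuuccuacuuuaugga
miR-142a-5p: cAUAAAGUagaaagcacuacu
miR-1839-5p: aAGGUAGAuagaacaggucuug

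Many of the other rows share short stretches of sequence with each other, so that 1 read could match several of them. The stretches printed here are 22 bases long, were found in the GENCODE vM21 transcripts of GRCm38 and are given in full lower case.
CAG repeat: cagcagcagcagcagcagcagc
TAGA repeat: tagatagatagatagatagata
Gm30567 family: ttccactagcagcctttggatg
Gm42428 pair: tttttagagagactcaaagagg

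The lncRNA counts of a library ranged from 0.604 to 52.6 M with a median of 4.54 M, and the thymus and spleen libraries held 2.12 to 12.2 M. Judged by miRNA profile, 166 of 686 libraries (24.2%) were closest to a tissue other than the one on their label. These libraries include 9 of 58 labelled thymus, 7 of 47 labelled spleen and 46 of 57 labelled mesenteric adipose tissue (MAT). In 11 of 44 sequencing pools they made up more than 1 of 3 libraries. The spleen FL group of LAR holds none of them. In the paper's embedding the adipose tissues clustered together, and 12 of the 46 MAT libraries were closest to thymus or spleen. The cause of a mismatch was not tested. The summed miRNAs of 7 lymphocyte markers had a median of 277976 CPM of the miRNA counts in thymus and 93527 in spleen, and the 6 thymocyte markers 257722 and 30414. Erythroid markers stood at 32107 in thymus and 99295 in spleen, myeloid ones at 797 and 6129, and those of adipocytes and stroma at 34521 and 58334. Epithelial markers were at 23669 in thymus and 337 in spleen, and muscle markers at 5594 and 803. The liver marker stood at 179 and 206, the brain markers at 184 and 114, the kidney markers at 657 and 936 and the pancreas markers at 3.22 and 12.7. Thymus had the highest median of the lymphocyte and thymocyte lists among the 13 tissues, and spleen that of the myeloid and erythroid lists. The lymphocyte list reached 66330 in brain and 52706 in lung, below spleen, and the thymocyte list 64449 and 42828, above spleen, so these lists do not mark lymphoid cells alone. A library of bulk tissue cannot tell fewer cells of a type from less RNA per cell.

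The share of lncRNA counts on the 100 rows followed the miRNA profile as well as the label. In the 91 libraries labelled and profiled as thymus or spleen it ranged from 0.500 to 5.69% with a median of 3.07%. In 14 libraries labelled thymus or spleen but with another profile it ranged from 0.621 to 1.76% with a median of 1.06%. In 38 libraries labelled as another tissue but with a thymus or spleen profile, 12 of them MAT and 7 brown adipose tissue (BAT), it ranged from 0.666 to 4.37% with a median of 2.39%. The remaining 543 libraries had a median of 0.682%. The profile contains miR-155 and the miR-17-92 miRNAs, so it is not independent of the host rows. The rows without a known small RNA in an exon gave medians of 917, 307, 1040 and 252 CPM in the same order of groups. Rows that could not be matched to the annotation are included there. No library was relabelled. Levels, medians and ranges by tissue and arm are those of all libraries as labelled.

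Under the rule, the ratio fell from 5.95 at rank 1 to 1.55 at rank 50 and 1.31 at rank 100, and 16 rows reached 2 or more. Most of the rows were rare. In 65 of 100 both lymphoid medians were under 10 CPM, in 15 the lower median was under 1 CPM, and in 9 it was 100 or more. Their median count over the 105 thymus and spleen libraries was under 5 in 15 rows and under 20 in 52, against 1000 or more in 9 rows. The thymus median was the higher of the pair in 72 rows. The next tissue was lung in 31 rows, subcutaneous adipose tissue (SCAT) in 25 and liver in 10, and in 7 rows all the other tissues had a median of 0.

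The rows at the threshold hardly differed. Just inside stood 1110019D14Rik, Gm45949 and Mir100hg, each at a ratio of 1.31, and just outside 4833415N18Rik, Gm12973 and Gm10522, each at 1.30. Mir100hg, by name the host of miR-100, is a member in 1 of its 45 rows. This row had medians of 1.65 in thymus, 3.50 in spleen and 1.03 in SCAT. Its count was a median of 0.00611 times that of miR-100, and the row holds the Gm30567 stretch. The list therefore has no sharp edge.

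The row with the highest ratio, 4930428O21Rik (chr5:107698212-107703480), lies 13177 bases from Gfi1, which encodes a transcriptional repressor of blood cell development. Its medians in the LAR controls were 32.6 CPM in thymus, 30.2 in spleen and 4.24 in lung, the next tissue. Coordinates are those of GRCm38, matched by transcript identifier for 95 of the 100 rows. The authors mapped to GRCm39, so these positions are not those of their build.

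Gm26640 came next with 16.7 in thymus, 16.4 in spleen and 4.55 in kidney. Gm35279 followed with 6.22 and 6.53, and then Gm42031, 2777 bases from Zfp791, with 35.5 and 23.5. The next ranks held both rows of Mir155hg at 2348, 1735 and 690 in thymus, spleen and heart. Mir155hg (chr16:84703167-84715245) is the primary transcript of miR-155, which acts in activated lymphocytes. Ranks 7 to 16 were Gm4316, Gm49980, Gm50228, Gm14264, 4930554C24Rik, Gm28875, Gm47127, 5031425E22Rik, Gm42428 and Gm48275, at ratios from 2.40 to 2.02.

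Several rows lie near genes of immune cells. Gm50228 is 15415 bases from Malt1, a gene of antigen receptor signalling, and 2310001H17Rik, at ranks 17 and 19, is 28843 bases from Cd69, an early activation marker of lymphocytes. Gm28556 is 14486 bases from Ptprc, which encodes CD45, and AI662270 is 8422 bases from Slfn3. 9330175E14Rik is 190 bases from Nlrc5, a regulator of MHC class I genes. Lockd lies 3585 bases from Cdkn1b, a cell cycle inhibitor, and 5031425E22Rik lies 1105 bases from Kmt2e. A distance says nothing of control, and no comparison with other rows was made for it.

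Of the lncRNAs listed from general knowledge as linked to blood cells, 5 of the 13 in the table were members, namely Mir142hg, Mir155hg, Mir17hg, Gas5 and Morrbid. Dleu2, Ifngas1, Mirt1, Malat1, Neat1, Xist, Meg3 and H19 were not. Among listed snoRNA host genes 3 of the 12 in the table were members (Gas5, Snhg12 and Snhg20), and Terc, the telomerase RNA, was the member of the 2 listed structural RNAs present, Rmrp being the other. A gene counts as a member here if any of its rows is one. Members were 2 of 50 rows of Morrbid, 4 of 5 of Gas5, 2 of 10 of Snhg12 and 2 of 7 of Snhg20. Morrbid, a regulator of the death gene Bcl2l11, stood at ranks 35 and 41, and the first of these rows had 19.7 CPM in thymus and 6.73 in spleen. Mir142hg (chr11:87755577-87757270), the host of the blood cell miRNA miR-142, stood at rank 20 with 3.55, 1.05 and 0.0964 in thymus, spleen and heart.

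The rows are not 100 separate measurements. 18 symbols have 2 to 4 rows each, such as 5031425E22Rik and Gas5 with 4 and Lockd and AI662270 with 3, and reads on shared exons could count for each of them. Both rows of Gm15892 held identical values in all 686 libraries. In annotation the rows resembled the table, with a median length of 960 bases against 786 for all matched rows, 3 exons against 3 and a GC content of 46.6% against 46.2%.

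A small RNA lay inside an exon in 9 of the 95 annotated rows (9.47%), against 89 of 8784 in the whole table (1.01%), and inside an intron in 10 (10.5%) against 3.53%. The first group holds Mir155hg, with 2 rows, Mir17hg with 6 miRNA hairpins, 2900076A07Rik with Mir1839, Snhg12 with Snora61 and Snhg20 with Mir6516, each with 2 rows, and Gm49714 with the snoRNA Gm23406. Since the count of a lncRNA row and that of its small RNA stand in separate deposited tables, their sizes can be set side by side.

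The Mir155hg row held nearly the same number of reads as miR-155. In thymus the median count was 10878 for the row and 10842 for both arms of miR-155, and in spleen 10409 and 10368. The ratio had a median of 1.01 over 686 libraries and lay within 10% of 1 in 676 of them. Snhg12 and Snora61 stood in the same relation, with a median ratio of 1.05 that lay within 10% of 1 in 653 libraries and reached 3 in 1 thymus library. The levels of these rows are thus numerically those of their small RNA.

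Mir17hg (chr14:115042879-115046727), the primary transcript of the miR-17-92 cluster that promotes lymphocyte growth, had a median count of 78888 in thymus against 63446 for the 12 miRNA arms of its cluster, and 62068 against 57773 in spleen. Its ratio to them had a median of 1.30 in thymus and 1.15 in spleen and lay within 10% of 1 in 34 of 686 libraries. Mir142hg gave the opposite picture, with median counts of 15 against 38910 for miR-142a in thymus and 6 against 64246 in spleen, the hairpin lying in an intron of the annotated transcript. For 2900076A07Rik the row exceeded its miRNA 8.00 times at the median, for Snhg20 23.6 times and for Gm49714 32.2 times, so their reads were mostly not those of the small RNA compared.

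**Figure D1:**
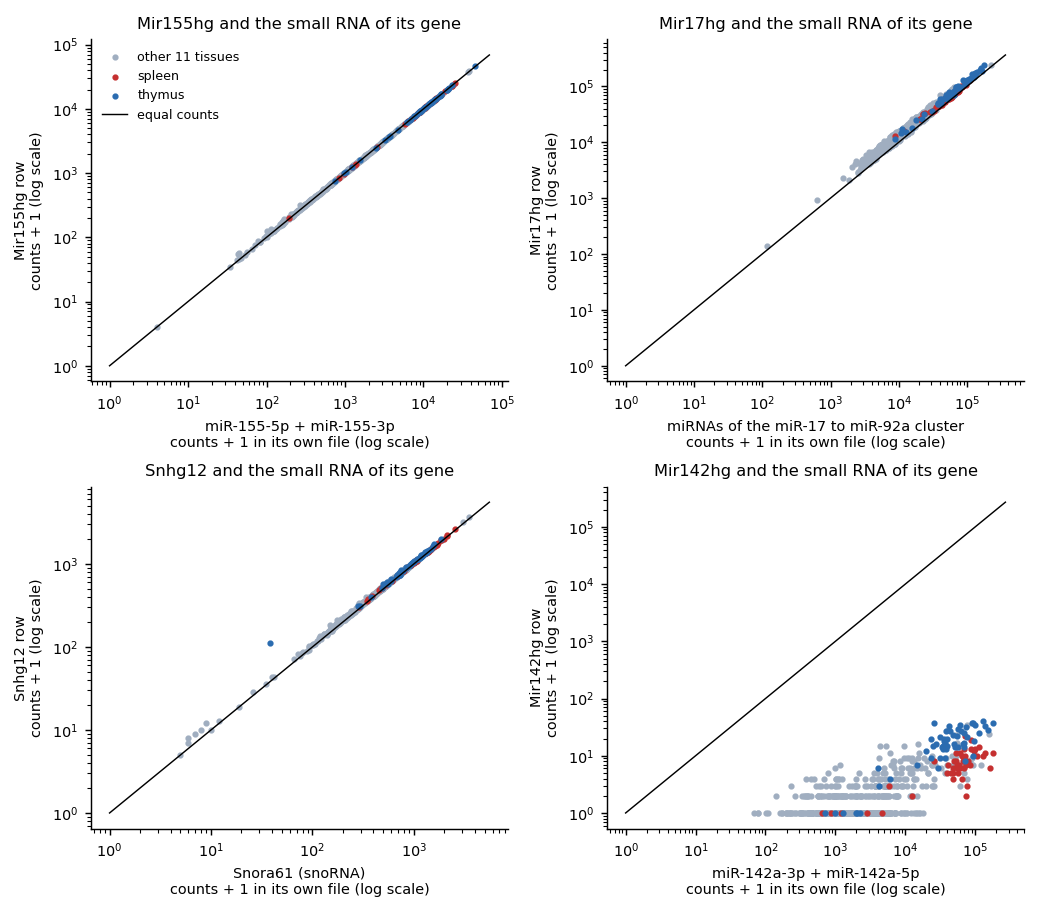
Count of 4 host rows (y axis, counts + 1, log scale) against the count of the small RNA of the same gene in its own table (x axis, counts + 1, log scale), with 1 point for each of the 686 libraries and a line at equal counts. Mir155hg and Snhg12 lie on the line, Mir17hg lies slightly above it (median ratio 1.30) and Mir142hg lies far below it.

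These few rows made up most of the signal. Mir17hg alone took a median of 57.2% of the member counts in thymus of LAR, 63.4% in TERM, and 51.3% and 55.6% in spleen. 2900076A07Rik took 18.5, 14.5, 21.4 and 18.5% and Mir155hg, both rows together, 16.9, 14.2, 18.0 and 16.7%. The 3 genes together held 91.4% of the member counts in thymus (71.2 to 96.5%, n = 58) and 89.0% in spleen (82.7 to 97.0%, n = 47). These are shares of counts that were not divided by transcript length.

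Such shared stretches were found in 33 rows. The CAG repeat occurs in 14 member rows of 10 genes, among them B230209E15Rik, Gm14266, A230006K03Rik and Otx2os1, the opposite strand transcript of the eye gene Otx2, and in only 1 other row of the table, Gm34256 at rank 7195. Between CAG rows of different genes the log2 levels had Pearson's r of 0.888 to 0.996 with a median of 0.973 over 686 libraries. The TAGA repeat occurs in 8 member rows of 6 genes (C430042M11Rik, Gm21814, Gm32647, Gm34240, Gm38096 and Gm5464) out of 14 rows of the table, with r of 0.712 to 0.978 and a median of 0.873. The other TAGA rows stood at ranks from 531 to 9050. The Gm30567 stretch occurs in 5 member rows of 10 in the table, with r of 0.615 to 0.786 and a median of 0.687, and the others at ranks from 133 to 7396. The stretch of Gm42428 occurs in 2 of 2 rows, and all 4 rows of a family around Gm4316 are members. Over all pairs of members of different genes the median r was 0.459. The libraries behind these correlations share depth and tissue, and how a read that matches several rows was assigned is not given in the sources used here. The rows of the CAG group moved almost together and are not separate measurements, although each of them is counted in the numbers of rows given here. A tandem run of at least 20 bases with a unit of up to 6 bases was found in 27 of 95 rows (28.4%), against 1051 of 8784 (12.0%) in the table. All 14 CAG rows and all 8 TAGA rows are among these 27.

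Summed over its 14 rows, the CAG signal had a median of 409 CPM in thymus of LAR, 292 in spleen and 150 in gonadal adipose tissue (GAT). In TERM it was highest in MAT with 468, followed by thymus with 450, GAT with 395, BAT with 336, lung with 278 and spleen with 254. The TAGA signal had medians of 101 in thymus and 71.0 in spleen of LAR, and 123 and 116 in TERM. In TERM both lymphoid medians of TAGA lay above that of MAT at 90.6, while for CAG the MAT median lay above both.

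Thymus had the highest share of counts on the 100 rows and spleen the next. In LAR the median was 3.06% in thymus, 2.21% in spleen, 1.33% in lung, 1.04% in kidney and 0.191% in brain, the lowest. In TERM, whose libraries did not choose the rows, it was 3.17% in thymus, 2.66% in spleen, 1.67% in MAT, 1.22% in lung and 0.237% in brain. Without Mir17hg the medians were 1.32 and 1.16% in thymus of LAR and TERM, 1.10 and 1.21% in spleen, and 0.924% in MAT of TERM. MAT of TERM holds 22 of 29 libraries with another profile than its label, 11 of them that of thymus or spleen.

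**Figure D2:**
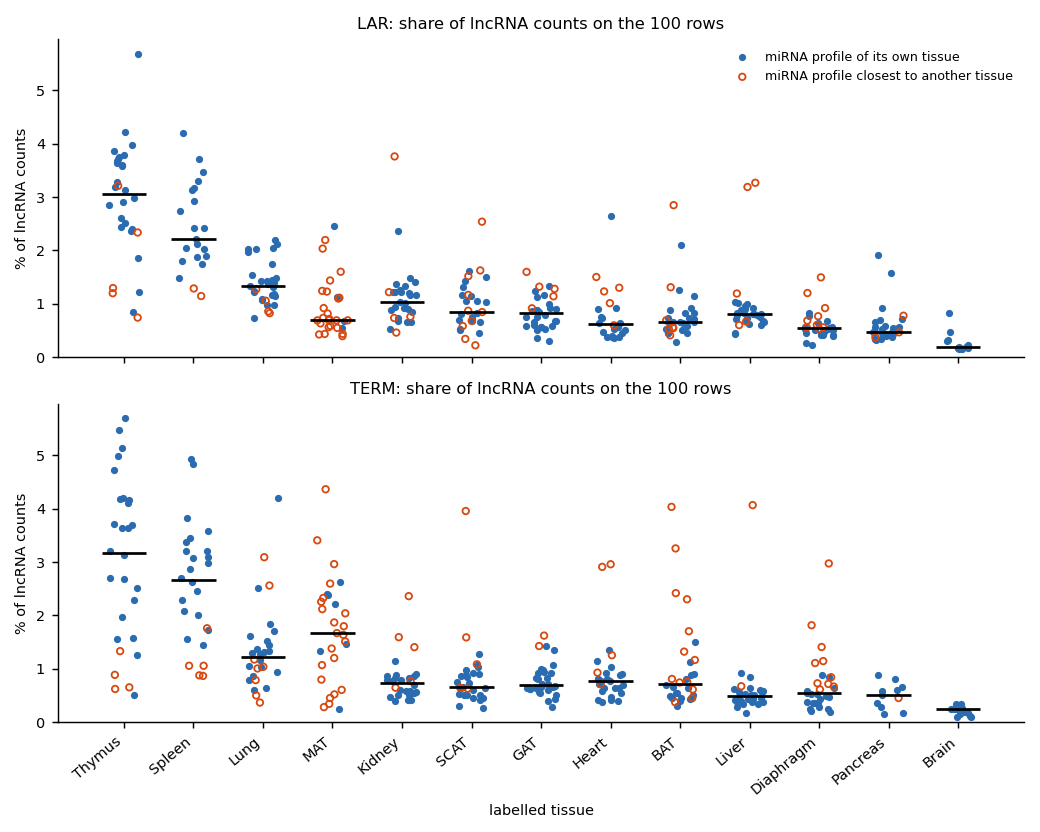
Share of lncRNA counts on the 100 rows (y axis, %) by labelled tissue in LAR (top) and TERM (bottom), with 1 point per library, filled where the miRNA profile was closest to its own tissue and open where it was closest to another, and a bar at the median. Thymus and spleen lie highest, at medians of 3.06 and 2.21% in LAR and 3.17 and 2.66% in TERM, and open points are found among the high values of the other tissues.

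Whether the order of tissues held in libraries that had not chosen the rows was asked of the flight mice of LAR and of all TERM mice. In FL of LAR (114 libraries) the thymus and the spleen median both exceeded those of the 11 other tissues in 89 of 100 rows, against 519 of 9139 rows of the table (5.68%). The exceptions were 4 rows of Gas5, 3 of Lockd, and 1 each of 5031425E22Rik, 4930412M03Rik, 1700001N15Rik and Gm20559. With libraries of their own profile alone the count was 83, against 344 of 9139 (3.76%). In TERM (338 libraries) it was 36, against 208 of 9139 (2.28%), and 30 with libraries of their own profile, against 203 of 9139 (2.22%). MAT was the highest of the other tissues there in 85 rows.

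**Figure D3:**
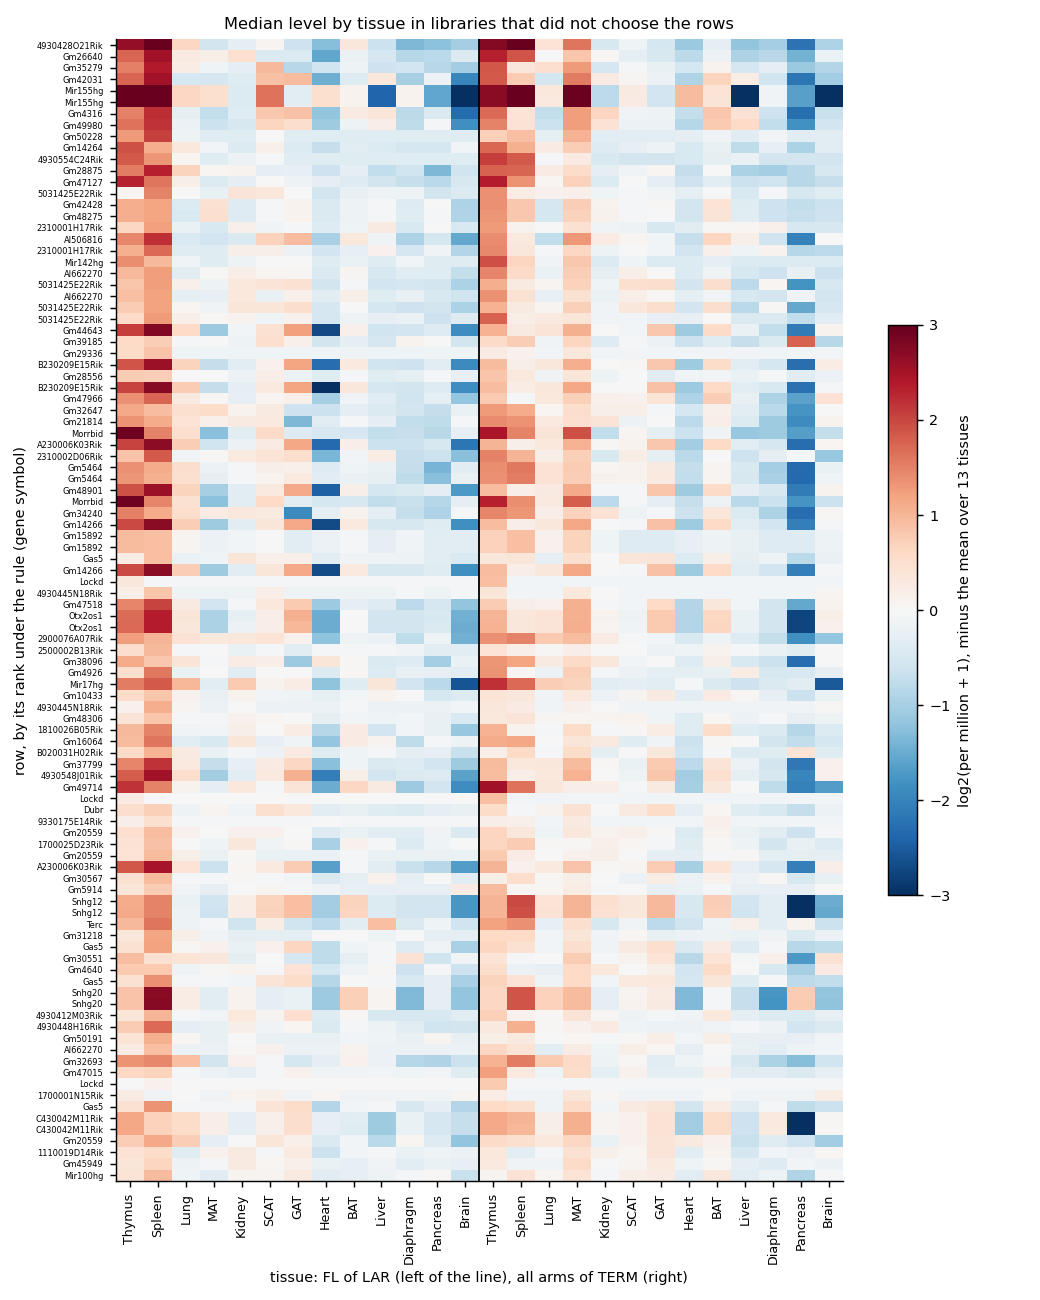
Median level of each of the 100 rows (y axis, ordered by rank under the rule) in 13 tissues of FL mice of LAR (left of the line) and of all TERM mice (right), as log2(CPM + 1) minus the mean of the row over the 13 tissues (colour). Thymus and spleen both lead in 89 rows in FL of LAR and in 36 in TERM, where MAT is the next highest column.

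The same samples were tested with edgeR's quasi-likelihood test, thymus or spleen against the mean of the 11 other tissues, with Benjamini-Hochberg adjustment over all rows tested and log2 fold changes ± SE. Libraries of 1 mouse entered these fits as independent. The counts of TERM with a block by mouse, which are lower, are given at the end, and no such fit is given for FL LAR. In thymus of TERM 87 of 100 rows were higher and 0 lower, where 20.3% of all rows were called higher, and the median log2 fold change was 1.28 against 0.10 over all rows. In thymus of FL mice of LAR 53 of 97 rows tested were higher (7.91% of all rows) and 0 lower, with medians of 1.27 and 0.14. In spleen of TERM 59 of 100 were higher (12.4%) and 2 lower (13.6%), with medians of 0.86 and −0.23. In spleen of FL mice of LAR 80 of 97 were higher (6.86%) and 0 lower, with medians of 2.11 and −0.07. Without libraries of another profile the counts of higher rows were 94, 59, 73 and 84 in the same order, where 2223 of 6579, 458 of 4488, 1975 of 6579 and 701 of 4488 rows were called in either direction. All 14 CAG rows were higher in 3 of these comparisons and none in spleen of TERM, whereas all 8 TAGA rows were higher in both tissues of TERM and none in FL of LAR.

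4930428O21Rik ranged in thymus of FL mice from 1.94 to 44.5 CPM with a median of 27.1 in LAR and from 8.00 to 51.1 with a median of 41.0 in TERM. In spleen of FL mice it ranged from 32.6 to 57.2 (median 43.9) in LAR and from 1.66 to 44.8 (median 23.2) in TERM. It was higher than in the other tissues by 2.83 ± 0.21 in thymus of TERM (edgeR adjusted p = 1.37e-30), 2.43 ± 0.29 in thymus of FL LAR (5.94e-11), 3.04 ± 0.22 in spleen of TERM (4.79e-32) and 3.64 ± 0.32 in spleen of FL LAR (3.49e-17). The other tissues of TERM had medians from 0 in pancreas to 5.14 in lung, apart from MAT at 13.2. Single libraries of BAT and heart reached 48.1 and 53.2, so the ranges overlap.

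The rows of the host genes of miR-155, miR-142 and miR-17 were higher in both organs. The counts of the Mir155hg row are numerically those of miR-155, and those of Mir17hg somewhat exceed those of its miRNAs. Mir155hg was higher by 2.34 ± 0.20 in thymus of TERM, 2.36 ± 0.26 in thymus of FL LAR, 2.55 ± 0.20 in spleen of TERM and 2.90 ± 0.30 in spleen of FL LAR. Mir142hg was higher by 3.54 ± 0.25, 3.18 ± 0.40, 2.18 ± 0.30 and 3.38 ± 0.49, and Mir17hg by 1.91 ± 0.14, 0.96 ± 0.21, 1.53 ± 0.15 and 1.49 ± 0.24. Morrbid (its first row) followed with 2.82 ± 0.21, 2.95 ± 0.31, 1.70 ± 0.24 and 2.00 ± 0.42. All of these passed the edgeR threshold.

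Snhg20, a snoRNA host gene, was a spleen row, at 1.58 ± 0.19 in TERM and 2.40 ± 0.34 in FL LAR, whereas its thymus values of 0.39 ± 0.20 (edgeR adjusted p = 0.143) and 0.18 ± 0.34 (0.816) did not pass. Terc was higher in all 4 comparisons, by 1.53, 1.47, 2.03 and 2.73. Of Snhg12, both rows passed in spleen and in thymus of TERM and neither in thymus of FL LAR, and of Gas5 all 4 passed in spleen of FL LAR, 3 in thymus of TERM and none in the other comparisons. Among the 4 comparisons Mir100hg passed in spleen of FL LAR alone, with 1.52 ± 0.36, and had −0.04 ± 0.20 in thymus of TERM. The smallest adjusted p-values in thymus of TERM were those of 4930554C24Rik at 3.51 ± 0.23, Lockd (ENSMUST00000184991.7) at 3.62 ± 0.25 and Gm49714 at 2.37 ± 0.16, and in thymus of FL LAR Gm47127 at 3.22 ± 0.30. Below the other tissues in spleen of TERM lay 1110019D14Rik at −0.88 ± 0.23 (edgeR adjusted p = 0.00126) and Gm4640 at −0.66 ± 0.23 (0.0168).

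Thymus and spleen were then set against each other. In FL mice of LAR 29 of 95 rows tested, of 22 genes, were lower in thymus than in spleen and 0 were higher, where 4.38% of all rows were lower, and the median was −0.85 against 0.12 over all rows. In TERM 31 of 100 rows were higher in thymus (9.21% of all rows) and 6 lower (6.88%), of 27 genes together, with medians of 0.44 and 0.19. The order of the organs thus differed between FL mice of LAR and the mice of all arms of TERM, and that difference itself was not tested. These sets differ in arms as well. In the LAR controls, which chose the rows, the thymus median was the higher in 72 rows. In FL LAR all 6 spleen libraries but only 8 of 10 thymus libraries had the profile of their label. Without the mismatched ones, and equally without the 11 pools, 46 rows were lower and 2 higher, the 2 being the rows of Morrbid at 1.16 and 1.14. In all, 551 of 3109 rows were called then. In TERM the counts without mismatched libraries were 32 higher and 8 lower, among 1044 of 4460. In TERM, where 24 mice gave both organs, a block by mouse left 20 higher and 6 lower, among 520 of 4505. In FL LAR, where no more than 4 mice gave both organs, the Morrbid rows also passed with that block, at 1.49 in both.

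Snhg20 was lower in thymus in both sets. In FL LAR its first row ranged from 30.9 to 415 CPM in thymus (median 218) and from 538 to 1099 in spleen (median 794), so the groups did not overlap, and in FL of TERM from 38.2 to 444 (median 220) and from 54.0 to 879 (median 507), with overlap. The edgeR log2 fold changes were −2.29 ± 0.40 in FL LAR (adjusted p = 0.00168) and −1.28 ± 0.29 over the mice of all arms of TERM (0.00164). Snhg12 was also lower in both, by −1.01 ± 0.31 and −0.76 ± 0.22 in its row ENSMUST00000232260.1. 4930448H16Rik was lower in TERM by −1.34 ± 0.31.

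5031425E22Rik changed sides between the sets. In FL mice of LAR its row ENSMUST00000188328.1 (chr5:23399780-23433336) ranged from 0.429 to 5.02 in thymus with a median of 0.922 and from 2.96 to 6.31 in spleen with a median of 4.07. In FL mice of TERM it ranged from 3.17 to 10.9 in thymus with a median of 6.59 and from 0.364 to 2.34 in spleen with a median of 1.14. The groups overlapped in LAR and were apart in TERM. In the LAR controls, which chose the rows, the medians of this row were 4.24 in thymus and 4.45 in spleen. The edgeR values for thymus against spleen were −2.10 ± 0.41 in FL LAR (adjusted p = 0.0037) and 1.70 ± 0.25 over the TERM mice (8.3e-07). In TERM its row ENSMUST00000185943.1 had 1.93 ± 0.25 and Lockd (ENSMUST00000184991.7) 2.99 ± 0.45, while Mir142hg had 1.27 ± 0.33 and the rows of Morrbid 0.98 ± 0.32 and 0.96 ± 0.32.

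Within the flight mice, LAR was compared with TERM in each organ. In spleen 52 of 99 rows tested, of 39 genes, were higher in LAR and 0 lower, where 5.79% of all rows were higher and 9.85% lower, and the median was 1.44 against −0.05 over all rows. In thymus 12 of 100 rows, of 6 genes, were lower in LAR and 0 higher, where 4.1% of all rows were lower and 1.18% higher, with medians of −0.51 and −0.16. In spleen the fresh RNAlater tissue of TERM was set against snap frozen tissue, and in thymus tissue of thawed carcasses was, so that flight duration, return, anaesthesia and preservation cannot be told apart in either. All 6 spleen libraries of FL LAR had the spleen profile, as against 7 of 9 of FL TERM. The summed lymphocyte markers of spleen ranged from 92506 to 117999 CPM of miRNA counts in FL LAR and from 24405 to 146039 in FL TERM, with medians of 102673 and 87082. The erythroid ones ranged from 36461 to 78018 (median 59319) and from 7152 to 200560 (median 142532), and those of adipocytes and stroma from 57441 to 103713 (median 92132) and from 43391 to 87620 (median 50321). Their part in the result was not tested. Without libraries of another profile 55 rows were higher and 8 lower, the 8 being the TAGA rows, among 869 of 3928 rows called in all.

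Gm35279 had the strongest call in spleen. It ranged from 5.40 to 13.6 CPM in FL LAR (median 10.2) and from 0.414 to 4.45 in FL TERM (median 1.04), so the groups did not overlap. Its log2 fold change was 3.38 ± 0.46 (edgeR adjusted p = 7.17e-06). 5031425E22Rik (ENSMUST00000188328.1) was also without overlap, at the levels given for spleen above, with 2.39 ± 0.43 (0.000381). 2310001H17Rik (ENSMUST00000203780.2) ranged from 2.69 to 6.84 (median 4.91) in FL LAR and from 0.430 to 3.09 (median 1.24) in FL TERM, which overlap slightly, with 2.29 ± 0.42 (0.000409).

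All 14 CAG rows were higher in spleen of FL LAR, with a median of 1.51, and as they moved almost together they are not 14 separate measurements. Their sum ranged from 222 to 870 CPM in FL LAR (median 608) and from 67.3 to 1055 in FL TERM (median 234). The 8 TAGA rows had a median of −1.28 and none passed. Their sum ranged from 47.3 to 111 in FL LAR (median 66.5) and from 76.3 to 624 in FL TERM (median 188), and libraries of the groups overlap. Gas5 passed in 3 of 4 rows at 1.45 to 1.57, Snhg12 at 1.11 in both rows and 4930428O21Rik at 1.57 ± 0.51. The most abundant rows did not pass, Mir17hg with 0.76 ± 0.32 (edgeR adjusted p = 0.105) and Mir155hg with 0.90 ± 0.49 (0.24).

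In thymus the marker miRNAs moved with the comparison. Thymocyte markers ranged from 24698 to 260222 CPM of miRNA counts in FL LAR (median 188102) and from 110598 to 429716 in FL TERM (median 331909), and lymphocyte markers had medians of 221608 and 355790. Erythroid markers ranged from 31999 to 147839 (median 52302) and from 4479 to 42672 (median 15621). The medians of the muscle markers were 23135 and 2604 and those of adipocytes and stroma 44389 and 24739. Their part in the result was not tested.

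The rows called lower in thymus of FL LAR were all 4 of 5031425E22Rik, all 3 of Lockd, 2 of AI662270 and 1 each of 2310001H17Rik, Gm4926 and 1810026B05Rik. 5031425E22Rik (ENSMUST00000188328.1) fell from a median of 6.59 in FL TERM to 0.922 in FL LAR, a log2 fold change of −2.21 ± 0.36 (edgeR adjusted p = 0.000198), with overlap of the groups between 3.17 and 5.02. Lockd (ENSMUST00000184991.7) ranged from 0 to 4.00 CPM in FL TERM (median 1.69) and from 0 to 0.367 in FL LAR (median 0.208), with −3.26 ± 0.65 (0.00231). In FL LAR that is a few reads per library at most, and for the row of 5031425E22Rik a few at the median. Gm4926 ranged from 0 to 8.63 (median 4.63) and from 0.415 to 2.23 (median 0.945). 1 library, thymus FL replicate 1 of TERM, stood far below its group in the member share, and without it 19 rows were lower, among 254 of 4620 called in all. Without libraries of another profile the count stayed at 12, among 242 of 4480.

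Flight against ground control was the comparison for which the study was made. In 12 comparisons of arms within thymus or spleen, edgeR called 0 of the 98 to 100 rows tested in each. Of all rows it called 1 in thymus of TERM for FL vs. HGC (0.0231%), 1 in spleen of TERM for FL vs. VGC (0.0274%) and none (0%) in the other 10. In LAR the HGC and VGC libraries had chosen the rows, so those comparisons are not independent of the choice. DESeq2 called 5 rows lower in spleen of TERM for FL vs. HGC, 2 rows higher in thymus of TERM for FL vs. VGC, and 0 in the other 10 comparisons. Of all rows it called 248 of 3655 in the first of these and 5 of 4332 in the second, so the 5 of 98 members in spleen are a share no higher than that of the table.

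**Figure D4:**
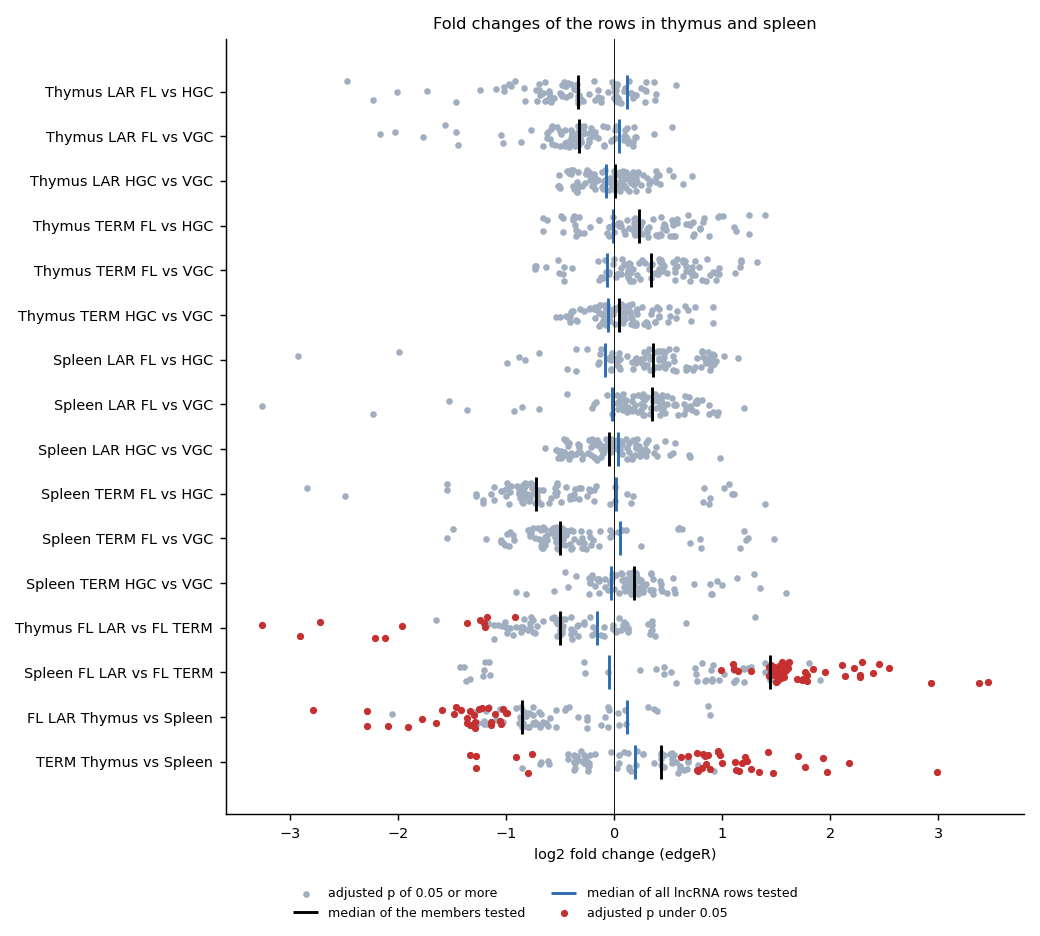
log2 fold change (x axis) of each row tested in 16 comparisons (y axis), with 1 point per row, red where the edgeR adjusted p was under 0.05, and bars at the median of the members (black) and of all lncRNA rows tested (blue). No point is red in the 12 comparisons of arms, while 52 rows are higher and 0 lower in spleen of FL LAR against FL TERM.

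The counts at an unadjusted p under 0.05 were uneven. In thymus of LAR they were 18 of 99 for FL vs. HGC, 10 for FL vs. VGC and 1 for HGC vs. VGC, and in spleen of LAR 4 of 98, 7 and 0. The thymus of TERM had 8 of 100, 9 and 2, and in spleen of TERM 26 of 98, 8 and 1. Of all rows, 6.62, 7.83 and 4.95% lay under 0.05 in thymus of LAR in the same order of comparisons, 6.76, 5.86 and 4.81% in spleen of LAR, 10.4, 10.1 and 3.67% in thymus of TERM and 17.6, 16.4 and 3.86% in spleen of TERM. The members' share was well above that of all rows for FL vs. HGC in thymus of LAR (18.2%) and spleen of TERM (26.5%), slightly above it for FL vs. VGC in both organs of LAR, and below it in the other 8 comparisons, among them FL vs. VGC in spleen of TERM (8.16%). The LAR shares are not independent of the choice of the rows, which was made on HGC and VGC libraries of LAR.

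The medians of the rows moved in opposite directions in the organs, none of it past a test. Those of LAR are again not independent of the choice of the rows. In thymus of LAR the median log2 fold change of FL was −0.33 against HGC and −0.33 against VGC, where all rows had 0.12 and 0.04. In spleen of LAR it was 0.36 and 0.35, where all rows had −0.09 and −0.02. In thymus of TERM it was 0.23 and 0.34 (all rows −0.01 and −0.06), and in spleen of TERM −0.73 and −0.50 (0.01 and 0.05). With library totals over 6 RNA classes in place of TMM the spleen LAR median for FL vs. HGC was −0.23, where all rows had −0.74. Its sign thus changed with the scaling, while it stayed above the median of all rows under both.

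The share of lncRNA counts on the rows overlapped between arms everywhere. In thymus of LAR it ranged from 0.742 to 3.75% in FL (median 2.42), from 0.850 to 5.68% in HGC (median 3.44) and from 1.20 to 4.23% in VGC (median 3.36). Thymus of TERM had medians of 3.91, 2.69 and 1.97% within 0.500 to 5.69%, 0.652 to 4.18% and 0.621 to 5.14%. None of its FL libraries but 2 of 9 HGC and 2 of 9 VGC libraries had another profile, among them the lowest HGC and the lowest VGC library. Its thymocyte markers had medians of 331909, 268663 and 258559 CPM of miRNA counts in the 3 arms, and their part in the values was not tested. In spleen the medians of the share were 2.83, 2.22 and 2.11% in LAR and 2.28, 3.09 and 2.76% in TERM.

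Mir17hg led these shares. In thymus of LAR it ranged from 4310 to 22550 CPM in FL (median 12195), from 3468 to 39227 in HGC (median 20193) and from 6687 to 26856 in VGC (median 19980). The medians in thymus of TERM were 25626 in FL, 15238 in HGC and 11350 in VGC, with 1 FL library at 3551. In spleen they were 15114, 10354 and 11725 in LAR and 13231, 15565 and 14056 in TERM. FL had the lowest median of the 3 arms in thymus of LAR and the highest in thymus of TERM, with overlapping ranges in both.

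Mir155hg (ENSMUST00000180991.2) had medians of 2376 in FL, 2798 in HGC and 2236 in VGC in thymus of LAR, within 181 to 3881. Its range in thymus of TERM was from 365 to 5993 in FL (median 2833), from 280 to 2734 in HGC (median 2116) and from 186 to 2438 in VGC (median 1029). In spleen the medians were 2252, 1811 and 1403 in LAR and 2317, 2374 and 2684 in TERM. No arm was apart from another.

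**Figure D5:**
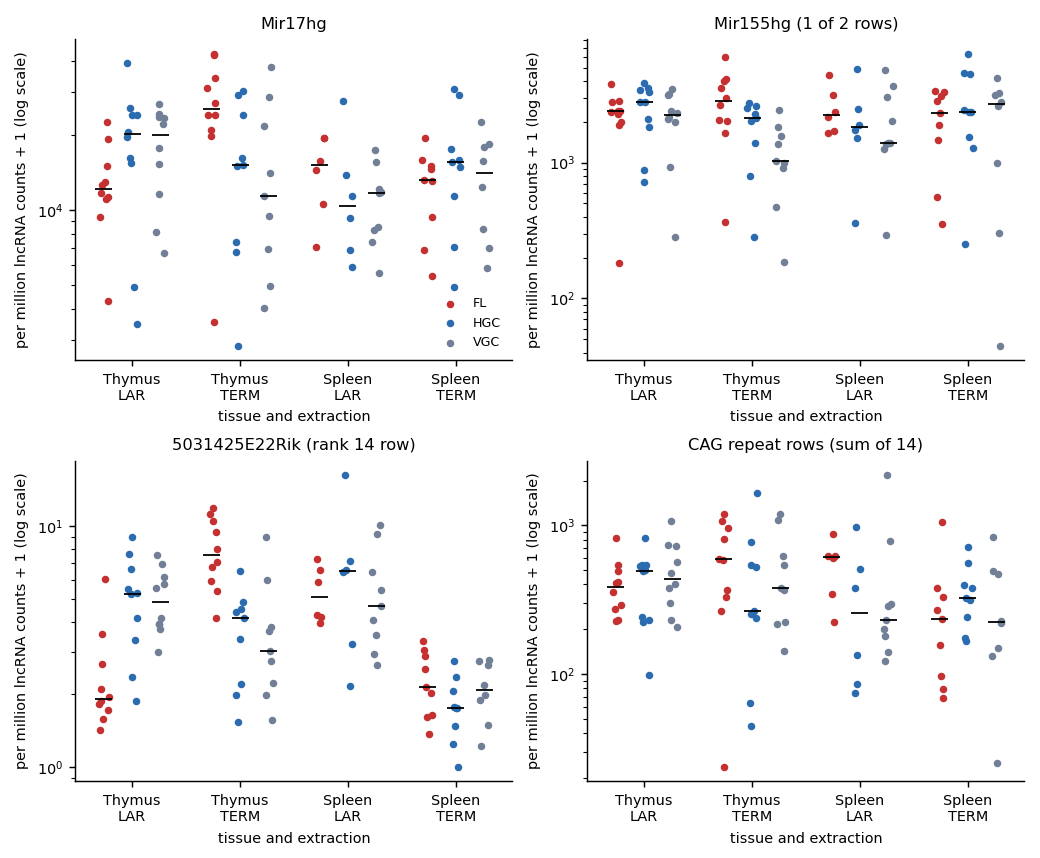
Level (y axis, CPM of lncRNA counts + 1, log scale) of Mir17hg, Mir155hg, 5031425E22Rik (ENSMUST00000188328.1) and the sum of the 14 CAG rows in thymus and spleen of LAR and TERM (x axis), with 1 point per library coloured by arm and a bar at the median. The arms overlap in every panel, and 5031425E22Rik has its lowest FL median in thymus of LAR (0.922) and its highest in thymus of TERM (6.59).

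In thymus of LAR the smallest p-values of FL vs. HGC were those of Lockd and 5031425E22Rik. Lockd (ENSMUST00000184991.7) ranged from 0 to 0.367 CPM in FL (median 0.208), from 0 to 2.53 in HGC (median 0.706) and from 0 to 2.07 in VGC (median 0.711), with a log2 fold change of −2.47 ± 0.60 (edgeR adjusted p = 0.27). The thymus libraries of LAR held a median of 4.42 M lncRNA counts. The FL values of Lockd were thus a few reads per library at most, as was the FL median of 5031425E22Rik. 5031425E22Rik (ENSMUST00000188328.1) ranged from 0.429 to 5.02 in FL (median 0.922), from 0.869 to 8.04 in HGC (median 4.24) and from 1.99 to 6.56 in VGC (median 3.84), with −1.46 ± 0.38 (0.299) and, against VGC, −1.57 ± 0.38 (0.596). Without FL replicate 3, whose profile was that of thymus, 2 rows of 5031425E22Rik passed for FL vs. HGC, at −2.09 and −1.78, among 4 of 3876 rows called in all. The 4 muscle markers of these groups summed to 262 to 37968 CPM of the miRNA counts in FL (median 23135), 1967 to 20382 in HGC (median 9199) and 284 to 61910 in VGC (median 4717), and their part in the values was not tested.

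In TERM thymus the same row lay on the other side, with 3.17 to 10.9 in FL (median 6.59), 0.534 to 5.52 in HGC (median 3.15) and 0.564 to 8.04 in VGC (median 2.02). Its log2 fold change was 0.97 ± 0.35 against HGC (edgeR adjusted p = 0.354) and 1.32 ± 0.35 against VGC (0.174). DESeq2 called 2 rows of this gene against VGC, at 1.35 and 0.98. Gm4926 had 1.39 ± 0.52 (edgeR adjusted p = 0.377) against HGC.

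In spleen of TERM the smallest p-values of FL vs. HGC were those of 9330175E14Rik and 2900076A07Rik. 9330175E14Rik ranged from 0 to 0.441 CPM in FL with a median of 0, from 0 to 1.91 in HGC (median 0.521) and from 0 to 1.40 in VGC (median 0.152), which is a few reads per library, with −2.85 ± 0.73 (edgeR adjusted p = 0.123). 2900076A07Rik ranged from 1790 to 4610 in FL (median 3615), from 3533 to 8048 in HGC (median 4604) and from 1895 to 6988 in VGC (median 3924), with −1.12 ± 0.33 (0.123). The 5 rows that DESeq2 called lower were 2900076A07Rik, Mir17hg (−0.76), Gm35279, 4930448H16Rik and Gm20559. For FL vs. VGC the smallest p-values were those of Gm35279, at −1.18 ± 0.47, and Morrbid (ENSMUST00000239237.1), at −1.05 ± 0.43 (edgeR adjusted p = 0.28 for both).

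The count for FL vs. HGC moved with the libraries kept. Without the 11 pools edgeR called 6 rows lower, and without each library of another profile 7, among them 4930428O21Rik at −1.23 and −1.16 and 9330175E14Rik at −2.64 and −2.73. In the same fits 337 of 3292 and 292 of 3435 of all rows were called, so that 6 of 94 and 7 of 98 members are shares below those of the table. 2 of 9 FL, 1 of 9 HGC and 2 of 8 VGC libraries of this group had another profile. Without FL replicate 11 or FL replicate 12, which are those 2 FL libraries, 9330175E14Rik was the single member to pass, where 224 of 3649 and 258 of 3641 of all rows did. The summed erythroid markers ranged from 7152 to 200560 CPM of miRNA counts in FL (median 142532), 29115 to 241528 in HGC (median 99295) and 38162 to 291499 in VGC (median 149539), and their part in the values was not tested.

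In spleen of LAR Gm28875 had the smallest p, with 7.00 to 15.8 CPM in FL (median 11.9), 1.49 to 12.0 in HGC (median 5.28) and 2.11 to 8.93 in VGC (median 5.07). Its log2 fold changes were 1.14 ± 0.39 against HGC (edgeR adjusted p = 0.72) and 1.20 ± 0.35 against VGC (0.711). Lockd (ENSMUST00000184991.7) came next and lay on the other side, from 0 to 0.207 in FL (median 0), from 0 to 0.848 in HGC (median 0.578) and from 0 to 1.45 in VGC (median 0.437), which is a few reads per library at most. Its log2 fold changes were −2.93 ± 1.07 against HGC (edgeR adjusted p = 0.72) and −3.26 ± 0.99 against VGC (0.711). The CAG sum in spleen of LAR ranged from 222 to 870 in FL (median 608), from 73.0 to 977 in HGC (median 255) and from 121 to 2171 in VGC (median 229), and its 14 rows had a median log2 fold change of 0.88 against HGC with none called. In thymus of LAR the CAG medians were 381, 495 and 437 in FL, HGC and VGC, in thymus of TERM 588, 263 and 375 and in spleen of TERM 234, 323 and 221. In spleen of TERM the CAG rows had median log2 fold changes of −0.79 against HGC and −0.59 against VGC, while the 8 TAGA rows had 0.95 and 0.99, with none of either called. Summed over the 91 rows without a known small RNA in an exon, spleen of LAR had medians of 1097, 630 and 617 CPM in FL, HGC and VGC, and the FL range of 616 to 1465 lay within that of HGC, 187 to 1679. In the same groups the markers of adipocytes and stroma had medians of 92132, 61213 and 59880 CPM of miRNA counts. Erythroid markers had 59319, 84959 and 101395, and lymphocyte markers 102673, 88544 and 93527. Their part in the values was not tested.

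HGC against VGC asks what the housing changed, and its smallest adjusted p over the rows was 0.882 in spleen of LAR, for AI662270 (ENSMUST00000142709.1) at 0.98 ± 0.58, and 0.904 in thymus of LAR, for Gm20559 at 0.72 ± 0.32. Next in order of p were 4930554C24Rik in spleen, at 0.70 ± 0.45, and Gm4640 in thymus, at −0.51 ± 0.32. In TERM the values were 0.97 in thymus, for both Mir155hg rows at 0.92 ± 0.39, and 0.984 in spleen, for Gm28556 at 1.14 ± 0.50, with 9330175E14Rik next at 1.35 ± 0.72.

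Whether the flight difference itself depended on the set was tested as an interaction of FL vs. HGC with LAR and TERM. In thymus 1 of 100 rows passed, 5031425E22Rik (ENSMUST00000188328.1) with −2.52 ± 0.51 (edgeR adjusted p = 0.0125), where 0.0644% of all rows were called (0.0215% higher and 0.043% lower), and 22 rows (22.0%) had an unadjusted p under 0.05, against 11.9% of all rows. The median of the rows was −0.55 against 0.07 over all rows. Its HGC controls of LAR are among the libraries that chose the rows, so this is not independent of the choice. At its FL median in thymus of LAR the row of 5031425E22Rik held a few reads per library. Without the 11 pools the row had −2.35 and no longer passed (0.121), while without each library of another profile 3 rows of this gene passed, among 5 of 4480 rows in all. Without thymus FL replicate 1 of TERM 6 rows passed, 3 of this gene and 3 of Lockd, among 9 of 4620.

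In spleen 0 of 99 rows passed the same test (0% of all rows), although 31 (31.3%) had an unadjusted p under 0.05, against 14.5% of all rows, and the median was 0.92 against −0.35 over all rows. The smallest p-values were those of Lockd (ENSMUST00000184991.7), on the other side at −4.77 ± 1.41 (edgeR adjusted p = 0.254), and Gm28875, at 1.93 ± 0.61 (0.279). Without the 11 pools 4930428O21Rik, at 1.91, and Gm28875, at 1.80, passed edgeR's threshold, among 8 of 3816 rows. DESeq2 was not run for interactions.

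Mice of 8 months were compared with those of 3 months with arm as a covariate. In LAR the HGC and VGC libraries among them had chosen the rows, so the LAR values by age, and by flight and age, are not independent of the choice. EdgeR called 0 rows in all 4 sets, where it called 3.21% of all rows in thymus of LAR and 0% in the other 3. Unadjusted p-values under 0.05 numbered 17 of 99 in thymus of LAR, 1 of 98 in spleen of LAR, 11 of 100 in thymus of TERM and 11 of 98 in spleen of TERM, or 17.2, 1.02, 11.0 and 11.2%, where all rows had 18.0, 5.45, 7.02 and 7.22%. Without libraries of another profile edgeR again called 0 rows in each. The medians were below 0 in each, at −0.41, −0.17, −0.36 and −0.21, where all rows had −0.03, −0.03, 0.00 and 0.08. With library totals over 6 RNA classes the first of these was 0.00, where all rows had 0.41. It thus stayed below the median of all rows under both scalings, while its distance from 0 did not hold.

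4930445N18Rik (ENSMUST00000181345.1) came nearest, with 0 to 2.20 CPM at 3 months (median 0.550) and 0 to 0.843 at 8 months (median 0.265) in thymus of LAR, 15 libraries each, and −1.59 ± 0.47 (edgeR adjusted p = 0.0539). Without a filter on low counts it passed, with 0.0461. DESeq2 called 6 rows lower at 8 months there, among 339 of 3897, 2 of Snhg20 and 1 each of Gm26640, Gm16064, Gm4640 and 4930448H16Rik. In spleen of TERM it called Gm4316 and Gm49980, which share sequence, among 34 of 3655. Gm49980 ranged there from 6.68 to 28.6 at 3 months (median 15.5) and from 1.96 to 13.8 at 8 months (median 7.42), with −0.90 ± 0.26 by edgeR (adjusted p = 0.2). The other rows of smallest p by edgeR were Gm16064 in thymus of LAR (−0.80 ± 0.29), Gm4316 in spleen of TERM (−0.91 ± 0.28), Gm28875 and 5031425E22Rik in thymus of TERM (−0.99 ± 0.35 and −0.72 ± 0.26) and 5031425E22Rik and 9330175E14Rik in spleen of LAR (−0.76 ± 0.36 and −1.20 ± 0.62).

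The abundant rows overlapped between ages. Libraries of another profile were 1 of 13 at 3 months and 3 of 15 at 8 months in thymus of TERM, 1 of 13 and 4 of 13 in spleen of TERM, 4 of 15 and 1 of 15 in thymus of LAR and 1 of 10 and 1 of 11 in spleen of LAR, and their part in the medians was not tested. Mir17hg had medians of 15399 at 3 and 17825 at 8 months in thymus of LAR, 24096 and 14141 in thymus of TERM, 13024 and 10578 in spleen of LAR and 15764 and 13114 in spleen of TERM. Mir155hg had 2174 and 2380, 2267 and 1390, 2090 and 1522, and 3121 and 1879 in the same order.

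The interaction of flight and age called 0 rows by edgeR in both organs and both sets, where 0.369% of all rows were called in thymus of TERM and 0% elsewhere. Unadjusted p-values under 0.05 numbered 12 of 99 in thymus of LAR, 18 of 100 in thymus of TERM, 1 of 98 in spleen of LAR and 0 of 98 in spleen of TERM, where 9.52, 11.4, 2.73 and 8.02% of all rows did. Without the 11 pools the count of calls was also 0 in each. The smallest in thymus were those of Snhg20 in LAR (2.31 ± 0.74, adjusted p = 0.318) and of Gm28875 and Gm26640 in TERM (2.42 ± 0.74 and 2.38 ± 0.79, adjusted p = 0.203 and 0.21). In spleen they were those of 9330175E14Rik and 1110019D14Rik in LAR (3.81 ± 1.66 and 1.84 ± 0.92) and of 1810026B05Rik and Gm5914 in TERM (−0.97 ± 0.56 and −2.21 ± 1.29). Each group of arm and age held 3 to 5 mice.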

How the data were processed

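Small RNA libraries of 13 tissues were mapped by the authors with miRMaster to GRCm39 and miRBase. The deposited lncRNA file holds raw read counts per transcript and the deposited miRNA file estimated counts, some of them fractions. Empty cells (55.5%) were taken as 0. snoRNA counts were set beside their hosts, library totals over 6 classes served as an alternative scaling, and piRNA was not used.

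The members and the gene lists were chosen with earlier results of these data known. Rows reaching 5 reads in 10% or more of any arm's samples were tested with edgeR 4.0.16 (limma 3.58.1, R 4.3.3, data.table version 1.17.8; TMM, quasi-likelihood, Benjamini-Hochberg adjustment over all rows tested, threshold 0.05). Alternatives were DESeq2 1.42.0, no filter, the totals, a replicate block, age as a covariate, and leaving out replicates, pools or libraries with the profile of another tissue. The tests were checked on simulated data. The 44 pools on 8 plates come from the study's sample list. The profile check used 730 miRNAs that stood over 2-fold higher in 1 tissue than in the median tissue, and 11 lists of marker miRNAs described the tissues. Python 3.11.15, numpy 2.4.6, pandas 2.3.3 and matplotlib 3.10.9 did the rest.

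Named rows are the 20 of highest ratio, host genes by name, listed genes, 3 rows on either side of the threshold and, in each comparison, up to 3 called rows per direction or the 2 of smallest p. Others, such as rows near immune genes, rows of shared sequence, 2900076A07Rik, Gm49714 and further called rows, were named after their values were seen. Same-numbered mice of different arms are different animals, and the correlations of their deviations had medians of −0.02 to 0.05, whereas thymus and spleen of 1 mouse are paired by the labels.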

Additional observations from a re-analysis of the deposited data

Results flagged for a closer look

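In thymus of TERM, FL replicate 1 stood far from the other 9 libraries of its group, with 0.500% of its lncRNA counts on the 100 rows against 3.21% in the next lowest and a group median of 3.91%. Its miRNA profile was closest to thymus. Of 12 groups examined for such a library 1 had one, and how often chance alone flags a group was not determined. In thymus the effect of flight against the habitat control differed between LAR and TERM for 5031425E22Rik (ENSMUST00000188328.1), tested as an interaction, by −2.52 ± 0.51 on the log2 scale (edgeR adjusted p = 0.0125). Without the 11 pools it was −2.35 and no longer passed (adjusted p = 0.121). The HGC libraries of LAR in this test are among those that chose the rows. In FL of LAR the row held a few reads per library at its median.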

How the results depend on the processing

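Counts of called rows moved by over 1.5 times in these settings. DESeq2 gave 5 calls in place of 0 in spleen of TERM for FL vs. HGC, 2 in thymus of TERM for FL vs. VGC, 6 in thymus of LAR and 2 in spleen of TERM for age, and 52 in place of 29 for thymus against spleen in FL LAR (of all rows 497 of 3402). Totals over 6 classes gave 1 in spleen of TERM for FL vs. HGC (308 of 3655). No filter gave 1 for age in thymus of LAR, 2 in place of 1 for the interaction of flight with LAR and TERM in thymus and 29 in place of 52 for spleen FL LAR against FL TERM (535 of 8998). Without the 11 pools there were 6 calls in spleen of TERM for FL vs. HGC, 0 for that interaction in thymus and 2 in spleen, and 48 for thymus against spleen in FL LAR (551 of 3109). Without libraries of another profile there were 7 in spleen of TERM for FL vs. HGC. Run for organs, LAR against TERM and interactions only after the data were seen, that setting gave 3 for the thymus interaction and 48 for thymus against spleen in FL LAR, and leaving out thymus FL replicate 1 of TERM, also added then, gave 6 for that interaction and 19 for thymus FL LAR against FL TERM. The cause was not tested in these. Leaving out 1 replicate at a time gave 0 to 2 calls for FL vs. HGC in thymus of LAR, 0 to 1 in spleen of TERM and 0 to 0 in the other 2.

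With the replicate block, the 12 comparisons of arms kept 0 calls. Blocking by mouse, thymus against spleen gave 31 calls (2 higher, 29 lower) in FL LAR, the 2 being Morrbid, where 348 of 2901 rows were called, and 26 (20 and 6) in place of 37 in TERM, where 520 of 4505 were. Thymus against the other tissues gave 72 in TERM (1536 of 6849) and spleen 57 (1489 of 6849). Of the 100 members, 81 remained with totals over 6 classes, 79 with a pseudocount of 10 and 87 without the 11 pools. In all, 180 member counts stayed within 1.5 times, 21 moved and 0 reversed, and of the named rows 301 values kept their side of the threshold, 11 gained a call, 1 lost it and 0 reversed. In 52 rows the median count was under 20, where counting error is largest.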
